A study of Rattus norvegicus with 36 samples.

Results

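Probe set 1370428_x_at divided the 36 livers of a rat dosing study into 2 sets with a wide gap between them. The sets were chosen by its measured values. The livers above 6.5 on the log2 scale were taken as the high set and those at or below it as the low set, which gave 21 high and 15 low livers of 36 in all. The probe set names RT1-A3 and RT1-A2, both genes of the rat major histocompatibility complex. The livers came from male Harlan Sprague Dawley rats that were 7 weeks old when dosing began. For 5 days they were given corn oil by gavage, with or without the brominated flame retardant TBBPA-DBPE (tetrabromobisphenol A-bis(2,3-dibromopropyl ether)), and liver was taken 1 day later. The 6 groups had 6 animals each, with doses in mg/kg of 0 (vehicle), 0.1, 0.94, 9.4, then 94.3 and at most 943. Every animal had its own array.

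Class I molecules of the major histocompatibility complex sit on the surface of nearly all nucleated cells and present peptides from inside the cell to CD8 T cells. In the rat the complex is called RT1 and lies on chromosome 20, where class I genes flank the class II and class III regions, and the class I genes form a family of similar sequences that differs between animals in sequence and in gene content. Hepatocytes carry little class I protein at rest and more under interferon. The suffix _x_at marks a probe set in which some probes match more than 1 transcript, so a value of it can collect signal from related genes.

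The RefSeq promoters (build GRCr8) of the genes that 1370428_x_at names, and of RT1-CE10, the class I gene whose probe set moved most with the division, are shown here. They are reference sequences, not read from these animals, and which gene gave the signal of 1370428_x_at was not tested. Each runs 5′ to 3′ over 300 bases around the annotated start. Capitals mark the letters GGGATTCCC (core of the kappaB site of enhancer A), TTTCACTTC (core of the interferon-stimulated response element) and CCAAT (the CCAAT box), searched on both strands.
RT1-A3, chr20:4849201-4849500, + strand: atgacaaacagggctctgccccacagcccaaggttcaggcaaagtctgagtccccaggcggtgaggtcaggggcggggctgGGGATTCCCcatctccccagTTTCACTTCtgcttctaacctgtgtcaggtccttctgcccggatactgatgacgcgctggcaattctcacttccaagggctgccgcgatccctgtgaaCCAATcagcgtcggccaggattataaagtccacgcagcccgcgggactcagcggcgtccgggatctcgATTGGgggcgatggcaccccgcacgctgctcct
RT1-A2, chr20:4872621-4872920, + strand: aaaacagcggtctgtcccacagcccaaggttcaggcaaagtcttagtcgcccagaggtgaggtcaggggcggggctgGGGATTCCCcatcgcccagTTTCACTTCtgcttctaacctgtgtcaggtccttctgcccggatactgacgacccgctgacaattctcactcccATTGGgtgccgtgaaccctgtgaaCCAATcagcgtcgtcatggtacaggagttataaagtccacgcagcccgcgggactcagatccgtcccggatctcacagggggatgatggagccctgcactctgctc
RT1-CE10, chr20:3384930-3385229, - strand: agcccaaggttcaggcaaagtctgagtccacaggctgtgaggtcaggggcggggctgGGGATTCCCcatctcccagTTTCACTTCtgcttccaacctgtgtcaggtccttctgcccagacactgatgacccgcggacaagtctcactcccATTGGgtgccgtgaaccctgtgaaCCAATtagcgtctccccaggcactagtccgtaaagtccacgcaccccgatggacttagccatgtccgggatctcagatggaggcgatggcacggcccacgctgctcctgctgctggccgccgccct

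All 3 windows held GGGATTCCC and TTTCACTTC. Over 33469 RefSeq promoters of the same length, 0.365% held the former and 0.469% the latter, and of 31 class I promoters 8 and 11 did. CCAAT was found in 37.5% of all promoters and 2 times in each of the 3 windows. The RT1-A3 and RT1-A2 windows were identical in 85.4% of aligned columns, against 74.8% for RT1-A3 with RT1-CE10 and 75.3% for RT1-A2 with RT1-CE10. A match of letters is a description of these windows and shows no binding.

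In the high livers 1370428_x_at lay between 9.50 and 10.95 with a median of 10.03, and in the low livers between 2.64 and 4.29 with a median of 3.54. These values chose the sets and were not tested. The gap between the lowest high liver and the highest low liver was 5.21, and the livers nearest to it had values of 9.50 and 9.54 above and 4.29 and 4.25 below. The means were 10.08 ± 0.45 (SD, n = 21) and 3.57 ± 0.42 (SD, n = 15). All low values lay below every array median, which ranged from 4.59 to 4.66, so the size of the step is uncertain. In whole liver, fewer cells of a type and less RNA per cell cannot be told apart. Class I genes also differ between animals in sequence and gene content. Whether the probes failed to match a gene in the low livers, or the gene was absent, was not tested.

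**Figure D1:**
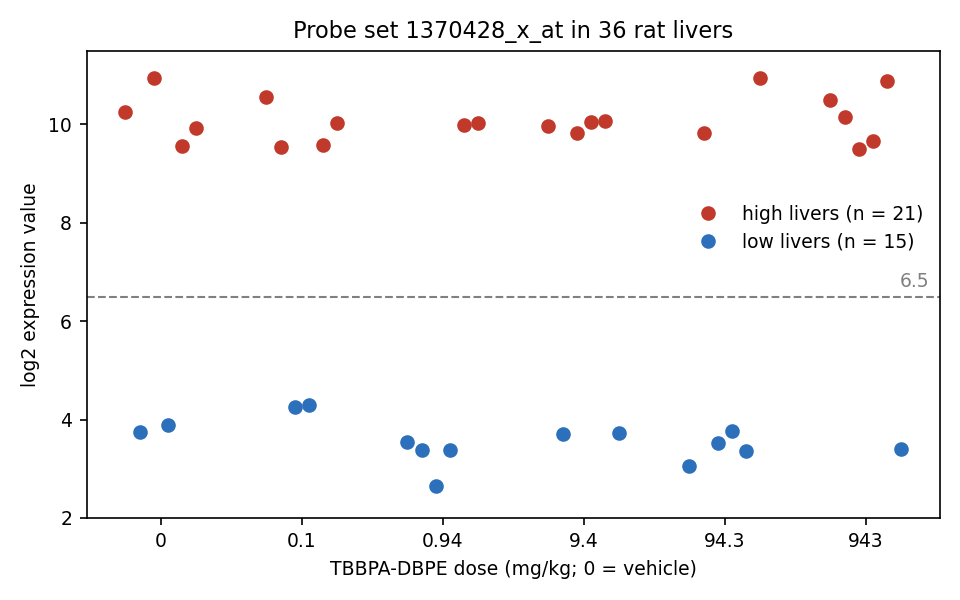
Log2 expression value of probe set 1370428_x_at (vertical axis) in each of 36 livers, 1 point per animal, by dose in mg/kg (horizontal axis). The dashed line is the dividing value of 6.5. High livers lie from 9.50 to 10.95 and low livers from 2.64 to 4.29, and both kinds occur at every dose.

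Both kinds of liver were found in all 6 groups. The high livers numbered 4 of 6 in vehicle, 4 at 0.1 mg/kg, 2 at 0.94 mg/kg, 4 at 9.4 mg/kg, 2 at 94.3 mg/kg and 5 at 943 mg/kg. The mean dose rank, from 0 for vehicle to 5 for the highest dose, was 2.52 ± 1.89 (SD, n = 21) in the high livers and 2.47 ± 1.55 (SD, n = 15) in the low livers. The difference of 0.06 was within the spread of the ranks (exact permutation test, two-sided p = 1). Its sign changed when single animals were left out, over a range from -0.12 to 0.24. The gap within a group was at least 5.25 in each group.

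The other probe sets that name the same genes showed no step like that of 1370428_x_at. Probe set 1371213_at (RT1-A3) had 4.06 ± 0.17 (SD, n = 21) in the high and 3.93 ± 0.14 (SD, n = 15) in the low livers, and 1388256_at (RT1-A3) had 3.38 ± 0.24 and 3.29 ± 0.20. Probe set 1380436_at, which names RT1-A2 and RT1-A1, had 4.31 ± 0.12 and 4.28 ± 0.16. In all 3, the high and low livers overlapped. The mean of 1371213_at was higher in the high livers in 6 of 6 dose groups, by 0.01 to 0.23, that of 1388256_at in 5 and that of 1380436_at in 4. They lay below the array medians on average, and probes of class I sets can be shared, so they and the other class I probe sets are described without a p. Probe set 1370429_at, which names RT1-A, was well above the array medians in both sets, with 7.38 ± 0.42 in the high and 7.43 ± 0.28 in the low livers.

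Of 31041 other probe sets compared between high and low livers with dose group as covariate, 4 passed an adjusted p of 0.05 in limma, or 0.0129%. Of these, 1 was higher in the high livers (0.00322%) and 3 were lower (0.00966%). An unadjusted p under 0.05 was reached by 1595, or 5.14%. RT1-CE10 was the 1 called probe set with a gene name, and as a class I gene it can share probes with the dividing probe set. The other 3 are probe sets 1371171_at, 1394803_at and 1389369_at, which the probe table pairs with no gene, so whether they share probes with class I genes could not be checked. Calling is relative to a division made from these same arrays.

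Probe set 1371171_at was lower in the high livers, from 4.25 to 5.14 with a median of 4.63, than in the low livers, from 5.11 to 5.69 with a median of 5.42. The sets overlapped only at the border, and the best single cutoff placed 35 of 36 livers correctly. The difference was -0.73 ± 0.0838 (SE; limma adjusted p = 8.03e-06). It was negative in 6 of 6 dose groups, from -0.29 to -1.15.

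Probe set 1394803_at was the 1 called probe set that rose with the dividing one. It ranged from 4.06 to 5.01 in the high livers (median 4.56) and from 3.00 to 4.32 in the low livers (median 3.80). The best cutoff misplaced 2 livers. The difference was 0.78 ± 0.0915 (SE; limma adjusted p = 8.03e-06) and positive in 6 of 6 dose groups. Both 1371171_at and 1394803_at kept an adjusted p under 0.05 in limma in each alternative that tested them and without any single animal, but neither difference reached 2-fold.

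RT1-CE10 (1388203_x_at), a class I gene 133 annotated genes from RT1-A3, was lower in the high livers. It ranged from 6.80 to 8.15 there (median 7.69) and from 7.98 to 8.46 in the low livers (median 8.17), and the best cutoff misplaced 2 livers. The difference was -0.61 ± 0.106 (SE). Within each of the 6 dose groups, every high liver lay below every low liver. The direction was thus opposite to that of the dividing probe set.

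Probe set 1389369_at ranged from 4.45 to 5.51 in the high livers (median 5.25) and from 5.43 to 5.80 in the low livers (median 5.67). The difference was -0.50 ± 0.0865 (SE; limma adjusted p = 0.0141), with 2 livers misplaced. Its call and that of RT1-CE10 were lost without any 1 of 4 animals, which were vehicle replicates 2 and 4, replicate 6 at 94.3 mg/kg and replicate 6 at 943 mg/kg, and 2 probe sets were then called. For 1389369_at the differences without them lay between -0.49 and -0.46. An ordinary linear model also lost both calls, as did leaving out the vehicle, 0.1, 9.4 or 94.3 mg/kg group. Leaving out the 0.94 mg/kg group lost that of 1389369_at alone, and leaving out the 943 mg/kg group that of RT1-CE10 alone.

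**Figure D2:**
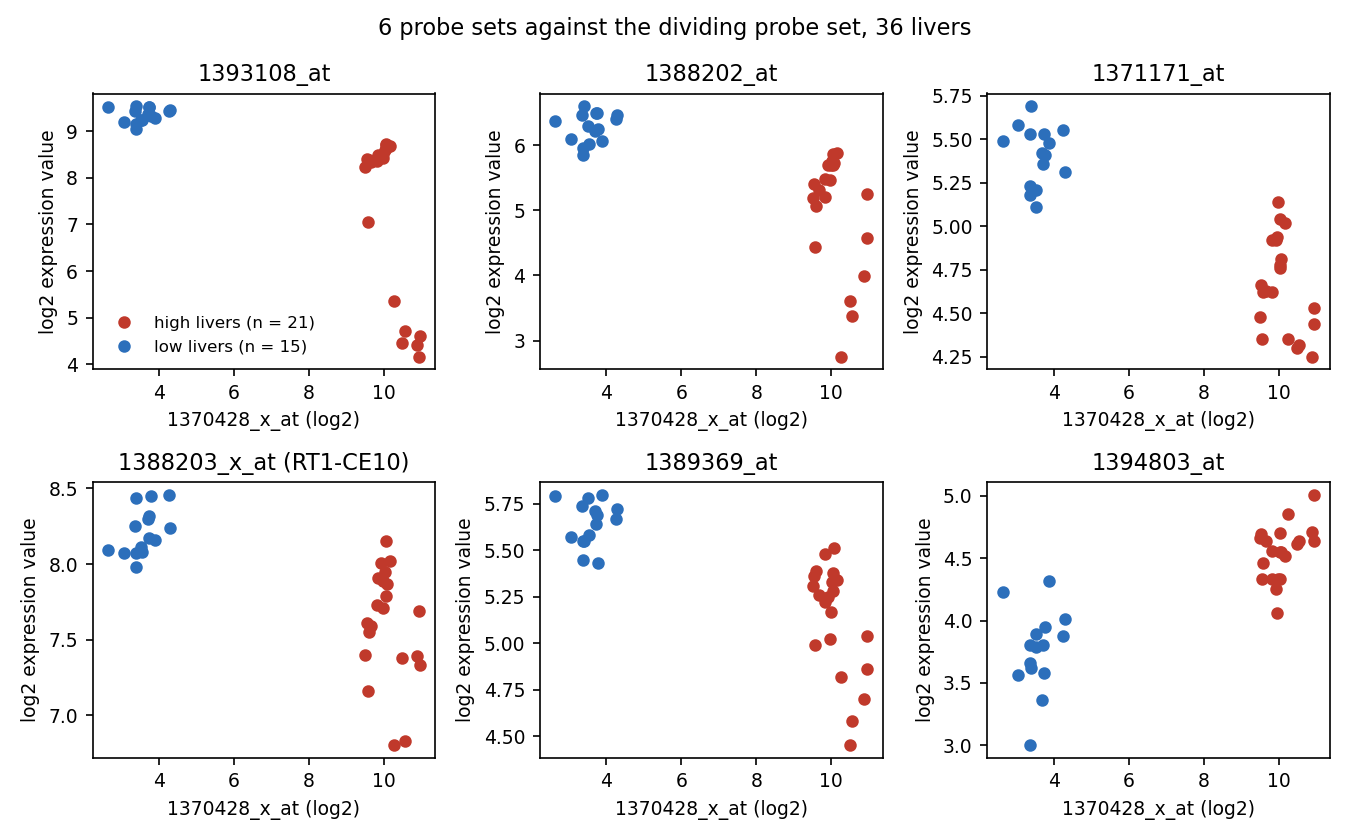
Log2 expression value of 6 probe sets (vertical axes) against that of 1370428_x_at (horizontal axes), 1 point per liver, for 21 high and 15 low livers. Probe set 1394803_at is higher in high livers and the other 5 are lower, and 1393108_at falls to between 4.16 and 5.35 in the 6 livers with the highest values of 1370428_x_at.

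Probe set 1393108_at, which has no gene in the probe table, separated all 36 livers without overlap, the 1 probe set of 31041 to do so (0.00322%). It lay between 9.05 and 9.54 in the low livers and between 4.16 and 8.73 in the high livers. Limma did not call it, with a difference of -1.96 ± 0.463 (SE; adjusted p = 0.456), and its SD was 1.80 in the high livers. The high livers fell into 2 clusters, 15 livers from 7.06 to 8.73 and 6 livers from 4.16 to 5.35. The 6 livers were those with the 6 highest values of 1370428_x_at, from 10.26 to 10.95, above the other 15 from 9.50 to 10.16. They were 2 vehicle livers, 1 at 0.1 mg/kg, 1 at 94.3 mg/kg and 2 at 943 mg/kg.

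The same order was seen in part in other probe sets, given here as ranges with no test because the clusters come from measured values. Probe set 1388202_at, without a gene name, had 5.85 to 6.6 in the low livers, 4.44 to 5.88 in the 15 and 2.75 to 5.25 in the 6. For 1389369_at the ranges were 5.43 to 5.80, 4.99 to 5.51 and 4.45 to 5.04. AA926063, an uncharacterized transcript 14 annotated genes away, had 3.27 to 5.76, 3.08 to 4.71 and 2.47 to 3.50. For 1371171_at they were 5.11 to 5.69, 4.35 to 5.14 and 4.25 to 4.53, so the 6 overlapped with the lowest of the 15 and reached below them. RT1-CE10 had 7.98 to 8.46, 7.16 to 8.15 and 6.80 to 7.69. Probe set 1394803_at rose instead, with 3.00 to 4.32, 4.06 to 4.70 and 4.61 to 5.01. B3galt4 and Gbp7 showed no such order, with medians of 5.53 and 5.47, and of 7.6 and 7.56, in the 15 and the 6.

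When the unlogged value of 1370428_x_at replaced the 2 sets in the model, a choice made after these levels were seen, 7 probe sets were called. They were the 4 above with 1393108_at, 1388202_at and AA926063, by limma. This model followed the order already seen in 1393108_at, 1388202_at and AA926063. Their calls in it describe that order and cannot test it, so they are given without a p. Within the cluster from 9.5 to 10.16 in 1370428_x_at, these probe sets tended to rise instead. Its lowest and highest livers were replicates 3 and 2 at 943 mg/kg. Between them 1388202_at went from 5.19 to 5.88, AA926063 from 3.08 to 4.48 and 1393108_at from 8.24 to 8.68. The other cluster ran from vehicle replicate 1 (10.26) to replicate 6 at 94.3 mg/kg (10.95). There 1388202_at went from 2.75 to 4.58, AA926063 from 3.1 to 3.03 and 1393108_at from 5.35 to 4.61. With the 2 sets themselves, 1388202_at had a difference of -1.21 ± 0.243 (SE; adjusted p = 0.091) and AA926063 one of -1.14 ± 0.23 (SE; adjusted p = 0.091), neither passing in limma. Both passed with array weights (adjusted p = 0.0218 and 0.0237), and 1388202_at also without the dose covariate (0.0093) and with the log2 value as covariate (0.0408). AA926063 passed without the 0.94 mg/kg group (difference -1.37), and without its replicate 2 (difference -1.20) or replicate 6 (-1.24), and 1388202_at without vehicle replicate 1 (-1.10) or 6 (-1.26).

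Among the 10 smallest p values, the remaining named genes did not pass in limma either, though each but Timeless passed under some alternatives. B3galt4, a galactosyltransferase of ganglioside synthesis 7 annotated genes away, had 5.53 ± 0.14 in the high and 5.27 ± 0.16 in the low livers (difference 0.26 ± 0.0547 SE, adjusted p = 0.117). Gbp7, an interferon-inducible guanylate-binding protein on chromosome 2, had 7.49 ± 0.59 and 8.10 ± 0.37 (difference -0.79 ± 0.164 SE, adjusted p = 0.104). Timeless, a replication fork protein on chromosome 7, had 4.28 ± 0.16 and 4.07 ± 0.20, both below the array medians (difference 0.26 ± 0.06 SE, adjusted p = 0.432). A probe set naming Zfp418l1 and Zfp418, zinc finger proteins, had 2.47 ± 0.12 and 2.69 ± 0.15, both far below the array medians. Its difference was -0.24 ± 0.0495 (SE; adjusted p = 0.091), but 0.06 within the 0.1 mg/kg group. In limma, B3galt4 passed without the dose covariate (adjusted p = 0.0443), and Gbp7 with array weights (adjusted p = 0.0218) and without replicate 6 at 0.94 mg/kg (adjusted p = 0.0124). The Zfp418 probe set passed with the log2 value of 1370428_x_at as covariate (adjusted p = 0.0408), and without the 0.1 mg/kg group or its replicate 3 (adjusted p = 0.00635 and 0.00914). The best single cutoff misplaced 4 livers for B3galt4, 8 for Gbp7 and 7 for Timeless.

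Likeness to 1370428_x_at was also ranked by the absolute Pearson correlation of values centred on dose groups. The 10 highest were 1371171_at, 1394803_at, 1389369_at, RT1-CE10, Zfp418l1 and Zfp418, 1388202_at, AA926063, 1382969_at, B3galt4 and 1393108_at. Because 1370428_x_at has 2 clusters, the coefficients only order the probe sets. Over all 31041 probe sets, at most 4 livers were misplaced by 7, or 0.0226%. Those were 1393108_at, 1371171_at, 1388202_at, RT1-CE10, 1389369_at, 1394803_at and B3galt4.

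**Figure D3:**
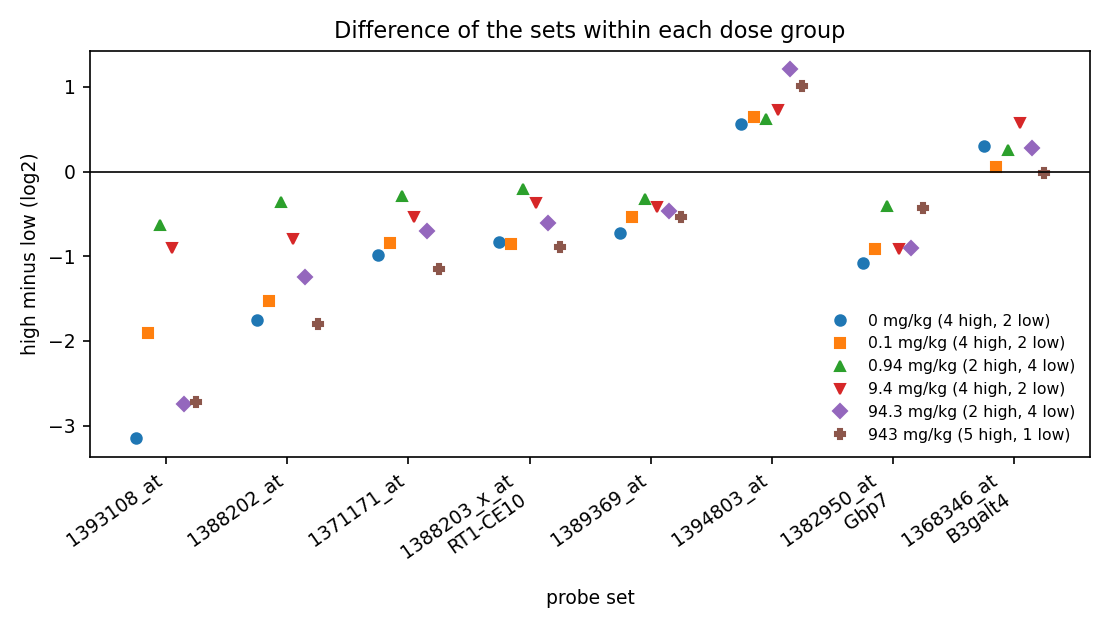
Mean of high livers minus mean of low livers (log2, vertical axis) within each dose group for 8 probe sets (horizontal axis), 1 symbol per group of 6 animals, with the number of high and low livers in the key. The 1393108_at differences run from -0.63 to -3.15, and B3galt4 is near 0 at 943 mg/kg, where 1 liver is low.

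The division also asked whether probe sets that follow it lie together in the genome. RT1-A3 and RT1-A2 are genes 487 and 492 of 1360 on chromosome 20 in RefSeq order. Within 200 annotated genes on either side, 1 of 247 placed probe sets was called (0.405%), which was RT1-CE10. Over all 20758 placed probe sets it was the 1 called, with 0 of 20511 outside the window. As a class I gene RT1-CE10 can share probes with the dividing probe set, and no placed probe set other than class I was called. The 3 called probe sets without a gene name have no place. An unadjusted p under 0.05 was reached by 14 of 236 probe sets in that window other than class I (5.93%), beside 5.12% of all 20758 placed probe sets.

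Closer in, the share was higher. Within 25 annotated genes, a window chosen after seeing the data, 10 of 40 probe sets other than class I reached an unadjusted p under 0.05 (25%), 7 higher and 3 lower in the high livers. The share was 8 to 12 probe sets without any single animal. None of the 10 passed the adjusted threshold in limma. The median absolute difference over these 40 was 0.0833, against 0.0372 over all placed probe sets. From 26 to 50 genes away on either side, 0 of 15 and 0 of 19 reached it.

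The 10 were AA926063, B3galt4, Pfdn6, Slc39a7, Cuta, Ralgdsl2, Vps52, Tap1, Kifc1 and Brd2, and the differences other than AA926063 were small. Pfdn6, a prefoldin subunit, differed by 0.18 ± 0.0457 (SE; limma adjusted p = 0.614). Slc39a7, a zinc transporter of the endoplasmic reticulum, differed by 0.13 ± 0.0354 (SE; limma adjusted p = 0.735). Tap1 (1375379_at), a subunit of the peptide transporter that loads class I molecules, was 2.91 ± 0.14 in the high and 2.79 ± 0.17 in the low livers, both below the array medians. Its other, brighter probe set lay the other way, with 6.66 ± 0.33 and 6.85 ± 0.39 (difference -0.24 ± 0.124 SE, limma adjusted p = 0.929), so no direction is drawn for Tap1. Vps52 was counted through 1369668_x_at alone. That probe set had 2.70 ± 0.11 in the high and 2.83 ± 0.11 in the low livers, both below the array medians. The other, brighter probe sets of Vps52 had differences of the other sign, 0.05 ± 0.0449 and 0.02 ± 0.0559 (SE). No direction is therefore drawn for Vps52. Brd2, a bromodomain protein, was 6.74 ± 0.17 in the high and 6.88 ± 0.20 in the low livers. Its other probe set, below the array medians, differed by -0.03 ± 0.0522 (SE). Kifc1, a kinesin of the mitotic spindle, was 4.44 ± 0.16 and 4.30 ± 0.19.

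**Figure D4:**
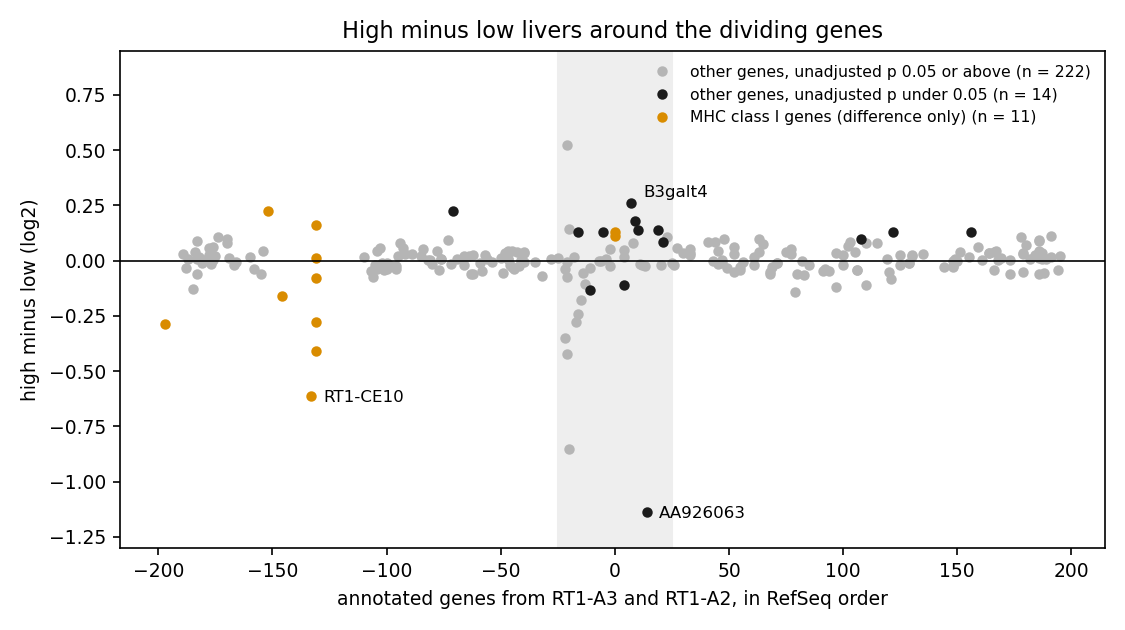
Difference of high minus low livers (log2, vertical axis) for 247 probe sets within 200 annotated genes of RT1-A3 and RT1-A2 on chromosome 20, in RefSeq gene order (horizontal axis). The shaded band marks 25 genes on either side, where 10 of 40 probe sets other than class I have an unadjusted p under 0.05.

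Gene groups of the complex were described by counts over 1 probe set per gene. Among all 14217 genes, 1 was called (0.00703%), 4.89% had an unadjusted p under 0.05 and the median difference was 0.0072. Of 52 class I genes listed, 12 were measured by a probe set naming 1 gene. RT1-CE10 was called lower, 0 were called higher and the median difference was -0.06. RT1-CE12 was 8.70 ± 0.15 in the high and 8.84 ± 0.14 in the low livers, and RT1-T24-4 was 8.19 ± 0.31 and 8.43 ± 0.23. RT1-CE16 lay on the other side, with 6.03 ± 0.34 in the high and 5.81 ± 0.27 in the low livers. The probe sets of RT1-CE5 differed in sign among themselves.

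Class II genes, which present peptides to CD4 T cells, had 8 of 12 measured and 0 called, with a median of -0.04. Genes of class I antigen processing and loading, such as Tap1, had 14 of 15 measured, 0 called and a median of -0.02. Class III genes had 37 of 45 measured, 0 called and a median of -0.01. Genes flanking the complex had 40 of 45 measured, 0 called and a median of 0.01.

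RT1-Bb, the beta chain of a class II molecule, had all-or-none values of its own in probe set 1371033_at. Its 15 upper livers ranged from 5.30 to 6.73 and its 21 lower livers from 2.98 to 3.79. The upper livers comprised 9 low and 6 high livers of the main division, and none of the 6 livers with the lowest 1393108_at values. The second probe set of RT1-Bb, 1371065_at, had 3.84 ± 0.26 in the high and 3.66 ± 0.28 in the low livers.

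In all, 12 probe sets had a gap of at least 1 log2 with at least 3 animals on each side. None of the 11 others came within 3 animals of the division of 1370428_x_at, the nearest differing by 11 and the farthest by 18. This count uses the widest gap of each probe set, so 1393108_at counts as differing by 15, since its widest gap lies inside the high livers, although another cutoff of it separates the sets without overlap. Retsat, a retinol saturase, differed by 11 animals, and Ubd, an interferon-inducible ubiquitin-like protein on chromosome 20, by 17. Ephx2, the soluble epoxide hydrolase, differed by 14. Its 7 upper livers, from 8.46 to 9.52, were all high livers, and the other 14 high livers and all 15 low livers lay from 4.97 to 5.82. Its difference did not pass in limma (adjusted p = 0.929). Abhd3, a phospholipase, differed by 17 animals.

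Other genes with widely spread values, or named in earlier results on these arrays, were not called between the sets, and the 4 given here were not among the 12 all-or-none probe sets. Bcl6, a transcriptional repressor, had 7.76 ± 1.64 in the high and 7.08 ± 1.44 in the low livers. Pla2g2a, a secreted phospholipase, had 6.03 ± 0.83 and 5.93 ± 0.98. Ugt2b (1387825_at), a glucuronosyltransferase, had 11.87 ± 2.33 and 12.55 ± 0.19, and Ptprb (1389332_at), an endothelial phosphatase, had 8.51 ± 0.18 and 8.49 ± 0.14. The medians of Ugt2b were alike, 12.69 and 12.64. Its wide SD in the high livers came with values of 5.08 in replicate 1 at 943 mg/kg and 4.71 in replicate 1 at 0.1 mg/kg.

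Hepatocyte genes were at the top of the scale in every liver, with albumin (Alb) between 14.35 and 14.43. The mean level of the hepatocyte list was 12.61 ± 0.05 in the high and 12.63 ± 0.05 in the low livers. Interferon response genes, a programme that raises class I expression, had 25 of 32 measured, 0 called, 3 with a positive difference and a median of -0.10. Their mean level ranged from 5.70 to 7.10 in the high and from 5.67 to 7.11 in the low livers. Kupffer cell and macrophage markers had 10 of 12 measured, none with a positive difference, and mean levels of 7.86 to 8.69 and 7.79 to 8.67. Of 9 genes listed for neutrophils, 6 were measured, all 6 with a positive difference and 0 called. Their mean levels were 3.53 to 4.63 and 3.57 to 3.83. Among the 6, S100a9 alone had means above the array medians in both sets, 5.58 ± 0.62 and 5.40 ± 0.18. Ly6g6c, also listed, lies on chromosome 20, 84 annotated genes from RT1-A3, and differed by 0.05 ± 0.0609 (SE). Whether the shared sign is a neutrophil difference was not tested. Lymphocyte (13 of 16 measured), natural killer (15 of 15), stellate (10 of 10), endothelial (7 of 10), cholangiocyte (6 of 7) and erythroid (4 of 8) lists had 0 called members, with medians from -0.02 to 0.09. The part of these cell types in the results was not tested.

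The arrays themselves were alike between the sets. Array medians averaged 4.62 in both, and the median correlation with other arrays was 0.994 in both. The 3′ minus 5′ difference of the GAPDH control was -0.0756 ± 0.0507 in the high and -0.0554 ± 0.0550 in the low livers, and that of beta-actin 1.14 ± 0.0645 and 1.19 ± 0.134.

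Whether the response to dose differed between the sets was tested as an interaction with dose rank. Limma called 0 of 31041 probe sets (0%), where the smallest adjusted p was 0.295, and 1429 had an unadjusted p under 0.05 (4.6%). With the division as a covariate, limma called 0 probe sets (0%) at each of the 5 doses against vehicle. In ascending order of dose, 1744, 1287, 1503, 2193 and 1691 had an unadjusted p under 0.05. The smallest adjusted p over the doses was 0.325, at 94.3 mg/kg.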

How the data were processed

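The authors deposited 1 log2 value per probe set and array. The submitters' processing notes name RMA and affy, without versions. A genome build for the probe annotation is not given in the sources read. From 31099 probe sets, 57 array controls and the dividing probe set were left out and 31041 were tested without a signal filter in limma 3.58.1 (R 4.3.3; lmFit, eBayes without trend, division plus dose group), two-sided, Benjamini-Hochberg over all, threshold 0.05. Differences are high minus low with the moderated SE. The fit was tested on simulated data, and the exact test against full enumeration of a small made-up case. P-values measure the spread between these 36 animals, 1 array each. Of the probe sets, 20826 name 1 gene, 436 several and 9780 none, and 20758 were placed in gene order through Entrez identifiers in a GRCr8 RefSeq table. Promoters come from RefSeq and were aligned with Biopython 1.88.

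Members, lists and alternatives were chosen with earlier results of these data known. Named were the dividing probe set, those naming its genes, called probe sets, the 10 of highest absolute correlation, and 7 genes listed from earlier results. The 10 smallest p, genes near RT1-A3 and probe sets that misplaced at most 4 livers were named after their values were seen. Alternatives covered the covariate, the cutoff, filters, normalization, weights, moderation, the replicate block, and leaving out animals or dose groups.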

Additional observations from a re-analysis of the deposited data

Results flagged for a closer look

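In 12 probe sets over 6 dose groups, 72 groups of 6 animals were examined, and 7 had an animal whose gap to the others exceeded Dixon's 95% critical value as a share of the group's range. Chance gives about 1 in 20 groups where values are not selected. That rate does not apply here, since the division was made from 1370428_x_at and most of the others were chosen for following it, so a lone liver of 1 set stands apart by that choice. Replicate 6 at 943 mg/kg, the 1 low liver there, had 3.39 in 1370428_x_at against 9.50 to 10.88 in the others and 3.62 in 1394803_at against 4.52 to 4.71. Replicate 1 at 0.1 mg/kg had 4.72 in 1393108_at against 8.38 to 9.45 and 4.58 in 1389369_at against 5.33 to 5.72. Replicate 6 at 94.3 mg/kg had 4.61 in 1393108_at against 8.50 to 9.43. B3galt4 stood at 5.65 in replicate 2 at 0.1 mg/kg against 5.38 to 5.47, and at 5.74 in replicate 6 at 0.94 mg/kg against 5.31 to 5.44.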

How the results depend on the processing

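The 4 calls became 7 with the unlogged covariate (chosen after seeing the data) and 7 with array weights, 2 in an ordinary linear model, 1 with 1 probe set per gene, 0 at 2-fold or more, and 2 without the vehicle group or the 9.4 mg/kg group. Without single animals the count lay between 2 and 6. The called neighbourhood count of 1 became 2 without the dose covariate, with the unlogged covariate, with array weights and without the 0.94 mg/kg group. It became 0 in the ordinary linear model, at 2-fold or more, in a window of 100 genes, and without the vehicle group or any dose group but 0.94 mg/kg, and lay between 0 and 2 without single animals. Called probe sets without overlap went from 0 to 1 with the unlogged covariate and without the 0.94 mg/kg group, and lay between 0 and 1 without single animals, being 1 without replicate 1 or 5 at 0.94 mg/kg. The 10 probe sets within 25 genes became 6 among the upper 50% of probe sets. The causes were not tested, apart from the fewer probe sets or animals of some alternatives. The dose rank difference lay between -0.12 and 0.24 without single animals. All-or-none probe sets numbered 9 with a gap of 1.5 and 8 with 6 animals on each side, and no dose gave a call in the alternatives run.

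Same-numbered animals of different groups had mean correlations from -0.0350 to 0.0924, against -0.00311 for different numbers in different groups. Replicate 1 had the highest mean, with single values up to 0.289. Means this low cannot exclude that a number marks animals handled together. With the replicate block, 4 probe sets were called between the sets, and 1 instead of 0 in the interaction with dose rank. Signal near or below the array medians limits 1371171_at, 1394803_at and the low values of 1370428_x_at. The same holds for AA926063, Timeless, Kifc1, 1382969_at and the Zfp418 probe set.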
